A study of Mus musculus with 24 samples.

Results

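The 9 genes described here mark Kupffer cells, the macrophages that live in the liver sinusoids, and were taken by name: Clec4f, Timd4, Vsig4, Cd5l, Marco, Cd163, Folr2, Fcna and Id3. All 9 were found among the 56205 genes of the count table, and all 9 passed the filter on low counts. The question was how they varied between the livers of mice fed a steatosis-inducing diet and those of control mice. Kupffer cells are seeded before birth and renew themselves in place, held there by macrophage growth factor from stellate cells, by Notch ligands and TGF-beta family ligands from the sinusoidal lining and by sterol-sensing nuclear receptors. They clear bacteria, complement-coated particles, lipoproteins and ageing red cells from portal blood. When resident cells are lost, monocytes entering from the blood can take up the same place, and these take on some identity genes early (Clec4f among them) and others, such as Timd4, late or not at all.

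RNA from whole liver was sequenced from 24 C57BL/6J mice that were young adults at the start. The FFD group (12 mice) ate a high-fat diet of the Gubra Amylin type, rich in palm oil, fructose and cholesterol, for 20 weeks, and the control group (12 mice) ate a control diet for the same time. No mouse carried an engineered allele, and the series held males and females in both groups (6 of each sex per diet). The labels number the mice 1 to 12 within each diet without giving a sex per library. Libraries 1 to 6 held 2664 to 6285 counts of the X-inactivation RNA Xist and 0 counts of the Y-linked Ddx3y, whereas libraries 7 to 12 held 0 to 3 and 448 to 1016. By these counts libraries 1 to 6 came from females and 7 to 12 from males, and each diet is also given in these 2 sets of 6. Any other difference that follows the numbers, such as a batch, cannot be told apart from sex. Library totals ran from 14468418 to 22112552 counts, and replicates of a diet are separate mice. Levels are given as raw counts or as CPM, the count relative to the library total after trimmed-mean (TMM) scaling. Diets were compared with the quasi-likelihood test of edgeR over 17913 genes, and a gene was called higher or lower in FFD at a Benjamini-Hochberg adjusted p of at most 0.01 with a log2 fold change beyond 0.5. Because whole liver was sequenced, a lower level from fewer Kupffer cells and one from less RNA per cell cannot be told apart.

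Some libraries stood apart. FFD replicate 3 held 186 CPM of the 4 neutrophil genes tested, against 1.21 to 4.01 CPM in the other FFD libraries, and 1798 CPM of the red pulp and erythroid genes, against at most 242 CPM. FFD replicates 9 and 11 held 4 and 5 counts of Timd4 and 2 and 1 counts of Cd163, the lowest of all. Control replicate 10 had the lowest scaling factor, 0.679, and the highest Id3 CPM. Where these libraries moved a call or a log2 fold change of a member by much, the value without them is given.

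The promoters of 4 members are shown because 3 of them (Clec4f, Folr2 and Cd5l) varied together from library to library, while Cd163 went the other way from Cd5l between the diets. Each window covers 300 bases around the RefSeq transcription start on GRCm38.p6, most of it upstream, 5′ to 3′ on the gene's own strand, and capitals mark TGCTGA on either strand, the half-site that MAF factors of macrophages bind. Clec4f (chr6:83656067-83656366, minus strand), Folr2 (chr7:101857141-101857440, minus strand), Cd5l (chr3:87357631-87357930, plus strand) and Cd163 (chr6:124304401-124304700, plus strand) read as follows.
Clec4f: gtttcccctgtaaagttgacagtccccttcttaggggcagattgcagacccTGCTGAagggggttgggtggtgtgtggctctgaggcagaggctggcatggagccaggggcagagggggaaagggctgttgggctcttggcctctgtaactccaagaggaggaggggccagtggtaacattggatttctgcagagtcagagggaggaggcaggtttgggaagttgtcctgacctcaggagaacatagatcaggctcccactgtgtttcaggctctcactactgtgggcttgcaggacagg
Folr2: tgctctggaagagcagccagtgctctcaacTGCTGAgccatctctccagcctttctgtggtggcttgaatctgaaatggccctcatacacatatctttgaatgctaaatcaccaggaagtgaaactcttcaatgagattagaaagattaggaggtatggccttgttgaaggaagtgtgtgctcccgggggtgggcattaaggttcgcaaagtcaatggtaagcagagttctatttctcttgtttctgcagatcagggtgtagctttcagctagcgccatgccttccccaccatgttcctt
Cd5l: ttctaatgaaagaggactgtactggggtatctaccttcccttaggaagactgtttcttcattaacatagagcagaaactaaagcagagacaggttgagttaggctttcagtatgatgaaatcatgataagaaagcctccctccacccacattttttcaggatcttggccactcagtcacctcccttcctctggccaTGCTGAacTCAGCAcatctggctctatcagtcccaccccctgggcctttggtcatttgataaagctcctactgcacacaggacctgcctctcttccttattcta
Cd163: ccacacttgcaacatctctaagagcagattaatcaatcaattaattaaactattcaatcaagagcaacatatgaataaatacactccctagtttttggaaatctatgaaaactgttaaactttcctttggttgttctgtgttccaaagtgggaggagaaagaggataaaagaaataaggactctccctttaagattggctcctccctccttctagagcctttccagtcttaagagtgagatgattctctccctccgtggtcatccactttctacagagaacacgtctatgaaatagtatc
The half-site occurred in Clec4f, Folr2 and Cd5l and not in the Cd163 window. Folr2 has 2 RefSeq windows with 1 match each, and the first is shown. The 4 genes were picked by their levels, so this difference describes their windows and tests nothing. It was found in a window of 6 of the 9 members (Timd4, Vsig4 and Fcna besides these 3) and in 19.5% of 32851 promoter windows of the same length. AGGAAG, the core that PU.1 and other ETS factors bind, was held by 5 members (Cd5l, Marco, Folr2, Fcna and Id3) and by 35.4% of all windows. AGGTCA, the nuclear receptor half-site, was held by Clec4f and Timd4 and by 16.3% of all windows. GGCGCC, a BMP-responsive SMAD element, was held by 0 members and by 11.9% of all windows. Both strands were searched for each, and no TGCTGA match overlapped a match of another motif. These matches describe letters only.

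Of the 9 genes, 2 were called higher in FFD (Cd5l and Folr2), 1 was called lower (Cd163) and 6 were not called, where 18.2% of all genes tested were called (13.2% higher and 4.99% lower). Diet was the only term of this fit, and with the set as a covariate Fcna was also called lower (-0.78, adjusted p = 0.00068, edgeR). The share of all genes called with that covariate is not given here. The 9 thus did not move as a block. Their log2 fold changes ran from -2.51 for Cd163 to 1.69 for Cd5l with a median of 0.20, beside a median of -0.03 over all genes tested. None of the 9 separated the diets completely over all 24 libraries, as 1.89% of all genes did.

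**Figure D1:**
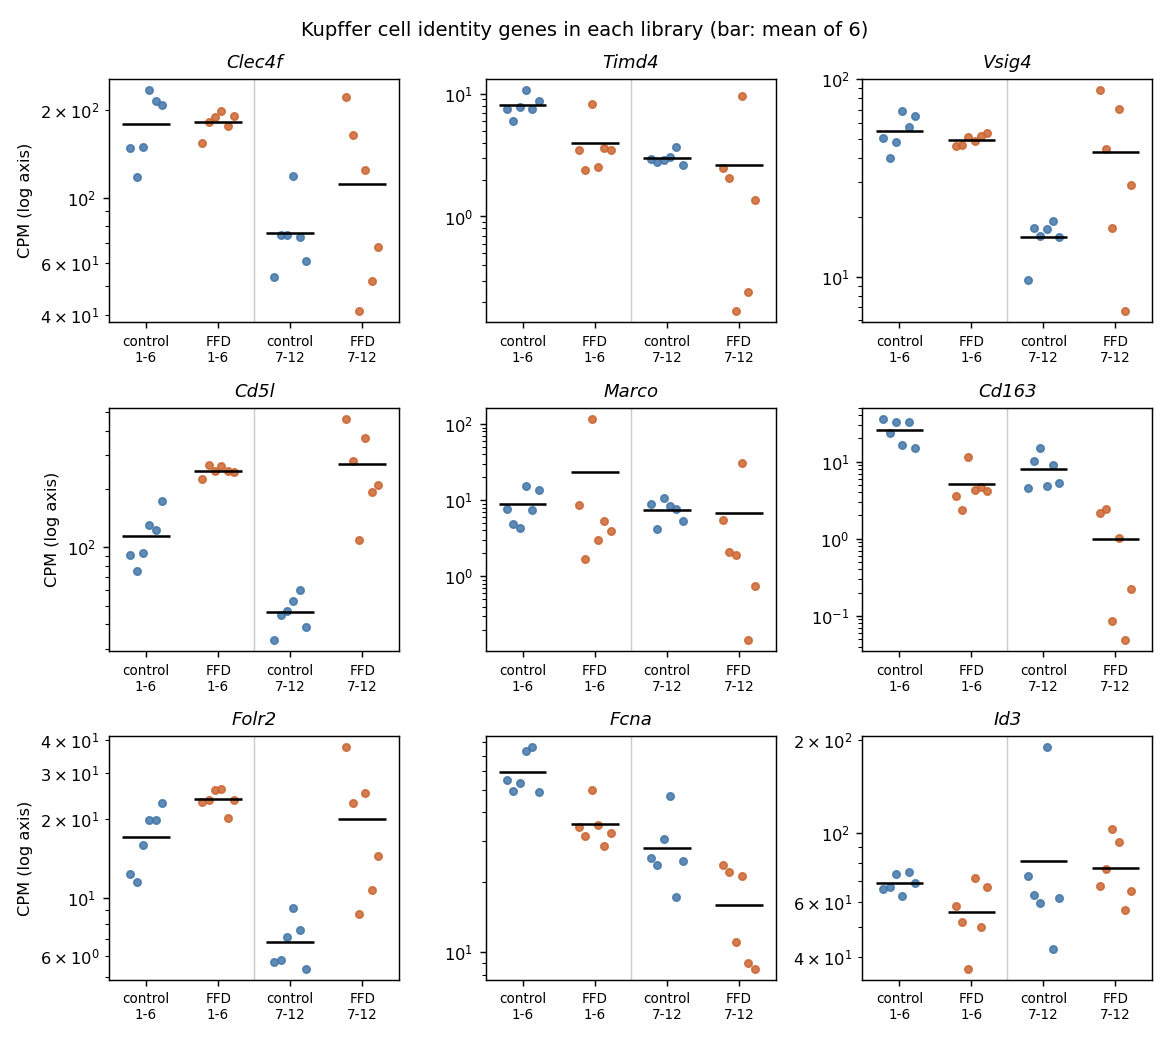
Each point is the CPM of 1 library on a log axis, in blue for control and orange for FFD, for mice numbered 1 to 6 (left pair) and 7 to 12 (right pair), and the bar is the mean of 6. Cd5l lay higher and Cd163 lower in FFD with no overlap within either set, while Clec4f and Vsig4 overlapped. In FFD libraries 7 to 12, Clec4f ran from 41.1 to 221 CPM.

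Clec4f encodes a C-type lectin that binds desialylated glycans and platelets and, in the mouse, is made by Kupffer cells almost alone. Its counts ran from 927 through a median of 1839 to 4511 in control and from 972 through 3153 to 4572 in FFD. The ranges covered nearly the same span, and the 2 lowest CPM values of all came from FFD replicates 9 and 11 (41.1 and 51.9 CPM). Mean levels were 127 ± 63.6 CPM in control and 147 ± 61.1 CPM in FFD (SD, n = 12 each). The log2 fold change was 0.20 (SE 0.28, adjusted p = 0.591, edgeR), with a 95% interval of -0.38 to 0.78.

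Cd163 encodes the haptoglobin-haemoglobin scavenger receptor and showed the largest difference of the 9. Control counts were 733, 474, 671, 303, 553 and 328 in replicates 1 to 6 and 84, 172, 259, 47, 160 and 81 in replicates 7 to 12. FFD counts were 68, 45, 213, 85, 83 and 84 in replicates 1 to 6 and 45, 45, 2, 26, 1 and 5 in replicates 7 to 12. On the CPM scale, 10 of 12 FFD libraries lay below every control library, and within each set of 6 all FFD libraries lay below all controls, which held in that direction for 1.20% of all genes. The level fell from 17.1 ± 11.4 to 3.03 ± 3.10 CPM (SD, n = 12 each), 5.70-fold lower by the fitted log2 fold change of -2.51 (SE 0.53, adjusted p = 0.000529, edgeR). It was called within replicates 1 to 6 (-2.36, SE 0.32, adjusted p = 0.000385) and within replicates 7 to 12 (-3.03, SE 0.64, adjusted p = 0.00193), where 3.80% and 22.2% of all genes were called.

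Timd4 encodes a receptor for phosphatidylserine on dying cells and is carried by long-established resident macrophages. Control libraries held 30 to 196 counts (median 93.5) and FFD libraries 4 to 243 (median 51). Of the FFD libraries, 7 of 12 lay below every control library in CPM, while replicates 10 (243 counts) and 3 (154 counts) lay among the highest. The mean was 5.51 ± 2.85 CPM in control and 3.30 ± 2.86 CPM in FFD, and the log2 fold change of -0.74 (SE 0.42, adjusted p = 0.161, edgeR) was not called. Within replicates 1 to 6 it was -1.03 (adjusted p = 0.0152) and within 7 to 12 it was -0.14 (adjusted p = 0.887). Without FFD replicates 3 and 10, the highest of the group, the log2 fold change was -1.34 (adjusted p = 0.00828, edgeR). Without replicates 9 and 11, the lowest of the group, it was -0.48 (adjusted p = 0.277). Both pairs were picked by their values, so these fits show how far the result rests on them and are no test of the diet. Of the other phosphatidylserine receptors, Axl (1.42), Tyro3 (1.55), Havcr2 (1.37) and Stab2 (0.57) were called higher in log2 fold change. None was called lower among the 8 tested, Timd4 included, and Mertk, the best known of them in macrophages, stood at 0.08 (adjusted p = 0.734). The Stab2 call was lost on leaving out FFD replicate 3 (0.44) or 7 or control replicate 4, 7 or 12, and it was met within neither set.

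Marco encodes a class A scavenger receptor for bacteria and particles and had the widest spread. Counts of Marco ran from 70 through 131.5 to 297 in control and from 3 through 69.5 to 2210 in FFD. In CPM, 7 FFD libraries lay below every control library and 2 lay above every control library: replicate 3 with 118 CPM, the library with the high neutrophil and erythroid genes, and replicate 10 with 30.5 CPM. The mean of 8.20 ± 3.53 CPM in control against 15.1 ± 33.3 CPM in FFD therefore has the opposite order from the medians, 7.71 against 3.47 CPM. The log2 fold change was 0.88 (SE 0.67, adjusted p = 0.308, edgeR) over all libraries, -0.49 (adjusted p = 0.446) without FFD replicate 3 and -1.30 (adjusted p = 0.0112) without replicates 3 and 10. Without FFD replicates 9 and 11 it was 1.14 (adjusted p = 0.171). These omissions were made with the values known and are no test of the diet. The part of the other cell types in the Marco level of replicate 3 was not tested.

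Vsig4 encodes the complement receptor CRIg, which binds C3b-coated particles. Counts of Vsig4 ran from 172 through 571 to 1401 in control and from 137 through 909.5 to 1823 in FFD, with overlapping groups. Mean levels were 35.4 ± 21.7 CPM and 46.0 ± 21.6 CPM (SD, n = 12 each), and the log2 fold change was 0.38 (SE 0.34, adjusted p = 0.391, edgeR). In replicates 7 to 12 controls held 9.57 to 19.0 CPM and FFD libraries 6.68 to 88.0 CPM, a log2 fold change of 1.45 (adjusted p = 0.0212) that was not called. In replicates 1 to 6 it was -0.15 (adjusted p = 0.405), and the difference between these 2 effects was 1.58 (SE 0.49, adjusted p = 0.0382), also not called.

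Cd5l encodes a secreted scavenger protein of tissue macrophages that binds lipids and circulates with IgM. Control counts were 1860, 1517, 1945, 2376, 2082 and 3752 in replicates 1 to 6 and 615, 760, 819, 521, 1064 and 591 in replicates 7 to 12. FFD counts were 4279, 5105, 4624, 5305, 4452 and 4878 in replicates 1 to 6 and 9572, 5159, 2596, 9256, 3957 and 4764 in replicates 7 to 12. Every FFD library lay above every control library of its own set, which held in that direction for 2.41% of all genes, and 11 of 12 lay above all 12 controls. The level rose from 80.2 ± 43.3 to 259 ± 87.1 CPM (SD, n = 12 each), 3.23-fold by the fitted log2 fold change of 1.69 (SE 0.25, adjusted p = 1.26e-05, edgeR). The rise was 1.12 (SE 0.16, adjusted p = 0.000502) on the log2 scale in replicates 1 to 6 and 2.57 (SE 0.29, adjusted p = 1.44e-05) in replicates 7 to 12.

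Folr2 encodes the folate receptor of resident tissue macrophages. Its counts ran from 82 through 183 to 499 in control and from 206 through 448 to 778 in FFD, and 7 of 12 FFD libraries lay above every control library in CPM. The level rose from 11.9 ± 6.27 to 21.9 ± 7.71 CPM (SD, n = 12 each), a log2 fold change of 0.87 (SE 0.25, adjusted p = 0.00805, edgeR). The call depended on the samples and the model. It was lost on leaving out any one of 15 libraries (FFD replicates 1, 3, 4, 6, 7, 8 and 10 and control replicates 1, 2, 7, 8, 9, 10, 11 and 12), with log2 fold changes of 0.78 to 0.87 and adjusted p of 0.0102 to 0.0156 in those fits. It was met with the set as a covariate (0.998, adjusted p = 0.000457) and with the replicate number as a block (0.931, adjusted p = 0.00262). The numbers were not taken as pairs, and both fits take out the set difference, so they are not separate support. Within replicates 7 to 12 it was called (1.58, adjusted p = 0.00115) and within 1 to 6 it was not (0.48, adjusted p = 0.0422). The other folate genes tested, Folr1, Slc19a1 and Slc46a1, were not called.

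Fcna encodes ficolin A, a secreted lectin that starts the lectin pathway of complement. Counts of Fcna ran from 306 through 763 to 1340 in control and from 184 through 526 to 939 in FFD, and 3 FFD libraries lay below every control library. Mean levels were 43.8 ± 19.5 CPM in control and 25.7 ± 12.4 CPM in FFD, with a log2 fold change of -0.77 (SE 0.27, adjusted p = 0.0276, edgeR) that was not called. The value was nearly the same in both sets, -0.74 within replicates 1 to 6 (adjusted p = 0.00391, called) and -0.80 within 7 to 12 (adjusted p = 0.0426). With the set as a covariate it was -0.78 with an adjusted p of 0.00068, which meets the call. Among the ficolins and collectins, Colec11 was called higher (0.56) of the 6 tested and none lower.

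Id3 encodes an inhibitor of E-protein transcription factors that Kupffer cells require, and other liver cells express it too. Its counts ran from 751 through 1310.5 to 1857 in control and from 688 through 1369 to 2446 in FFD. Mean levels were 75.2 ± 36.9 CPM and 66.6 ± 18.6 CPM, a log2 fold change of -0.17 (SE 0.19, adjusted p = 0.478, edgeR). The single highest library was control replicate 10 with 189 CPM, and without it the log2 fold change was 0.04. None of the 4 Id family genes was called.

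**Figure D2:**
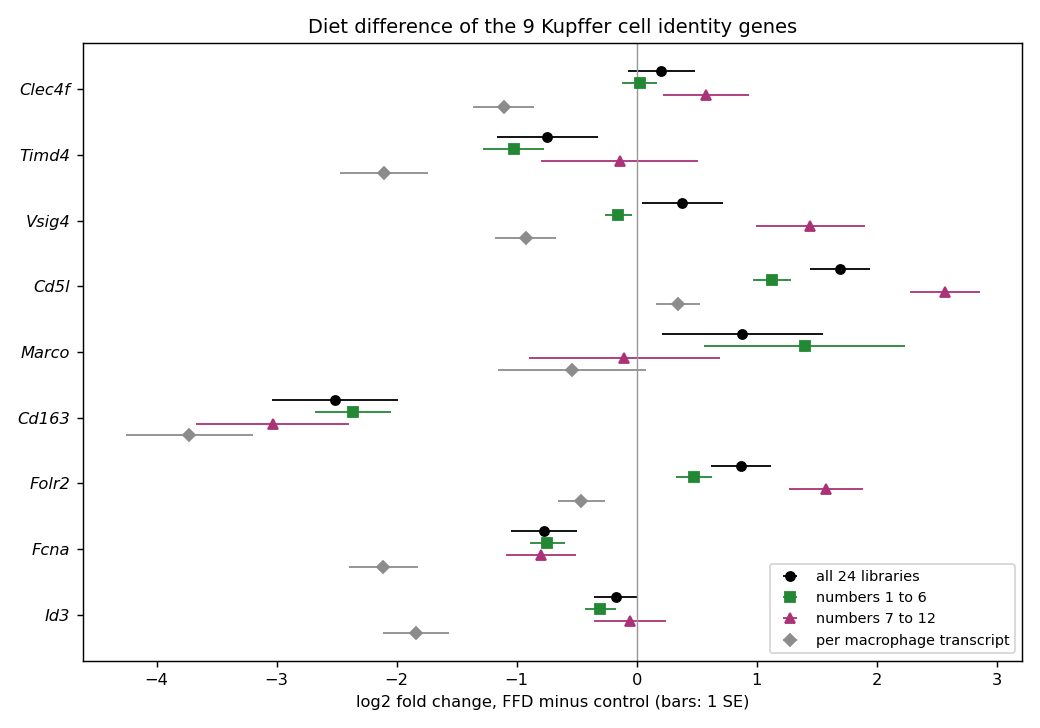
Log2 fold change (FFD minus control) with 1 SE for each gene over all 24 libraries, within replicates 1 to 6, within replicates 7 to 12, and on the scale of 14 macrophage genes. Cd5l and Cd163 stood on opposite sides of 0 in all 4 fits, Cd5l by only 0.35 on the last scale, while Clec4f, Vsig4, Marco and Folr2 each lay on both sides of 0 among the 4.

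The order of levels per length also differed between the diets. In control livers the CPM per kilobase of exon ran Clec4f 51.5 ± 25.7, Id3 42.0 ± 20.6, Cd5l 39.4 ± 21.2, Fcna 31.9 ± 14.2 and Vsig4 23.8 ± 14.6 (SD, n = 12), and neighbours in this order differed by less than their SD. The next 4 were Folr2 7.73 ± 4.05, Marco 4.26 ± 1.83, Cd163 3.12 ± 2.09 and Timd4 2.54 ± 1.31 CPM per kilobase, again with neighbours closer than the larger of their SDs. In FFD livers Cd5l led with 127 ± 42.8 CPM per kilobase, ahead of Clec4f with 59.3 ± 24.7 by more than either SD. Id3 (37.2), Vsig4 (31.0), Fcna (18.7), Folr2 (14.1) and Marco (7.86) followed. The Marco value rested on replicate 3 and was 3.01 ± 4.45 CPM per kilobase without it, below the control mean. Cd163 was last with 0.55 ± 0.57, after Timd4 with 1.52 ± 1.32, which it did not leave by more than the SD of Timd4.

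Control libraries of the 2 sets, female (1 to 6) and male (7 to 12) by Xist and Ddx3y, differed in most of these genes. In control replicates 7 to 12 against 1 to 6, 5 of 9 members were called lower, where 3.50% of all genes were: Vsig4 (-1.78), Folr2 (-1.34), Cd5l (-1.31), Clec4f (-1.23) and Fcna (-1.08, all log2). Cd163 (-1.67, adjusted p = 0.0151, edgeR) and Timd4 (-1.42, adjusted p = 0.0779) did not pass, and Marco (-0.24) and Id3 (0.24) lay near 0. In the FFD libraries the same contrast called 2 members lower, Cd163 (-2.37) and Fcna (-1.16), where 3.42% of all genes were, while Cd5l stood at 0.12 and Clec4f at -0.70. The difference of the diet effect between the sets was called for Cd5l alone among the 9 (1.42, SE 0.34, adjusted p = 0.00783, edgeR), where 2.57% of all genes were called in that direction, and this call was lost on leaving out 15 of the 24 libraries in turn. In simulated counts this test recovered 11.5% of 2-fold differences, so the members not called are not shown to lack one. Both contrasts draw on the same libraries as the diet comparison.

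FFD libraries 7 to 12 differed among themselves. Clec4f was 221, 164, 41.1, 124, 51.9 and 68.3 CPM in replicates 7 to 12, and Cd5l followed it with 462, 280, 110, 365, 193 and 211 CPM. Cd163 was 2.17, 2.44, 0.08, 1.02, 0.05 and 0.22 CPM in the same order. The libraries lowest in Clec4f (9, 11 and 12) were also lowest in Cd5l and Cd163, and the highest Timd4 level of the FFD group, 9.58 CPM, came from replicate 10. The cholangiocyte genes summed to 171 CPM in FFD replicate 9 and to 31.1 to 38.9 CPM in replicates 10, 11 and 12, against 13.6 to 14.5 CPM in replicates 7 and 8, and their part in these levels was not tested.

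Setting each gene against Clec4f in the same library needs no scaling between libraries. The ratio was chosen after the values were seen and is given as a description. Control livers held 0.446 to 0.832 counts of Cd5l per count of Clec4f (median 0.624), and FFD livers held 1.28 to 3.72 (median 1.59), so that all 12 FFD libraries lay above all 12 controls. Folr2 behaved likewise, with 0.077 to 0.111 in control and 0.115 to 0.212 in FFD. Such a separation upwards held for 24 of the 17912 genes tested besides Clec4f, or 0.134%, with Cd5l and Folr2 among the 24. Both varied closely with Clec4f from library to library (0.88 and 0.95), which narrows their ratios. For genes that do not vary with Clec4f, the division adds its spread. The share is therefore no measure of how rare the separation was. In control libraries the Cd5l ratio averaged 0.641 in replicates 1 to 6 and 0.624 in replicates 7 to 12, although the CPM of both genes differed between these sets. In FFD it was 1.28 to 1.47 in replicates 1 to 6 and 1.70 to 3.72 in replicates 7 to 12, which did not overlap.

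The ratios of Cd163, Timd4 and Fcna to Clec4f lay lower in FFD. Cd163 was at 0.040 to 0.244 counts per count of Clec4f in control and 0.00094 to 0.060 in FFD, with 11 of 12 FFD libraries below every control. Timd4 was at 0.026 to 0.054 in control and 0.0041 to 0.077 in FFD, with 10 of 12 below every control and replicate 10 above. Fcna was at 0.235 to 0.473 and 0.107 to 0.270, again with 10 of 12 below. The mean log2 ratio differed by 1.60 for Cd5l, 0.76 for Folr2, 0.24 for Vsig4, -0.33 for Id3, -1.02 for Fcna, -1.20 for Marco, -1.43 for Timd4 and -3.51 for Cd163 (FFD minus control). The small Vsig4 value averaged -0.19 in replicates 1 to 6 and 0.67 in replicates 7 to 12, and Marco was at -0.26 and -2.14 in the same sets.

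**Figure D3:**
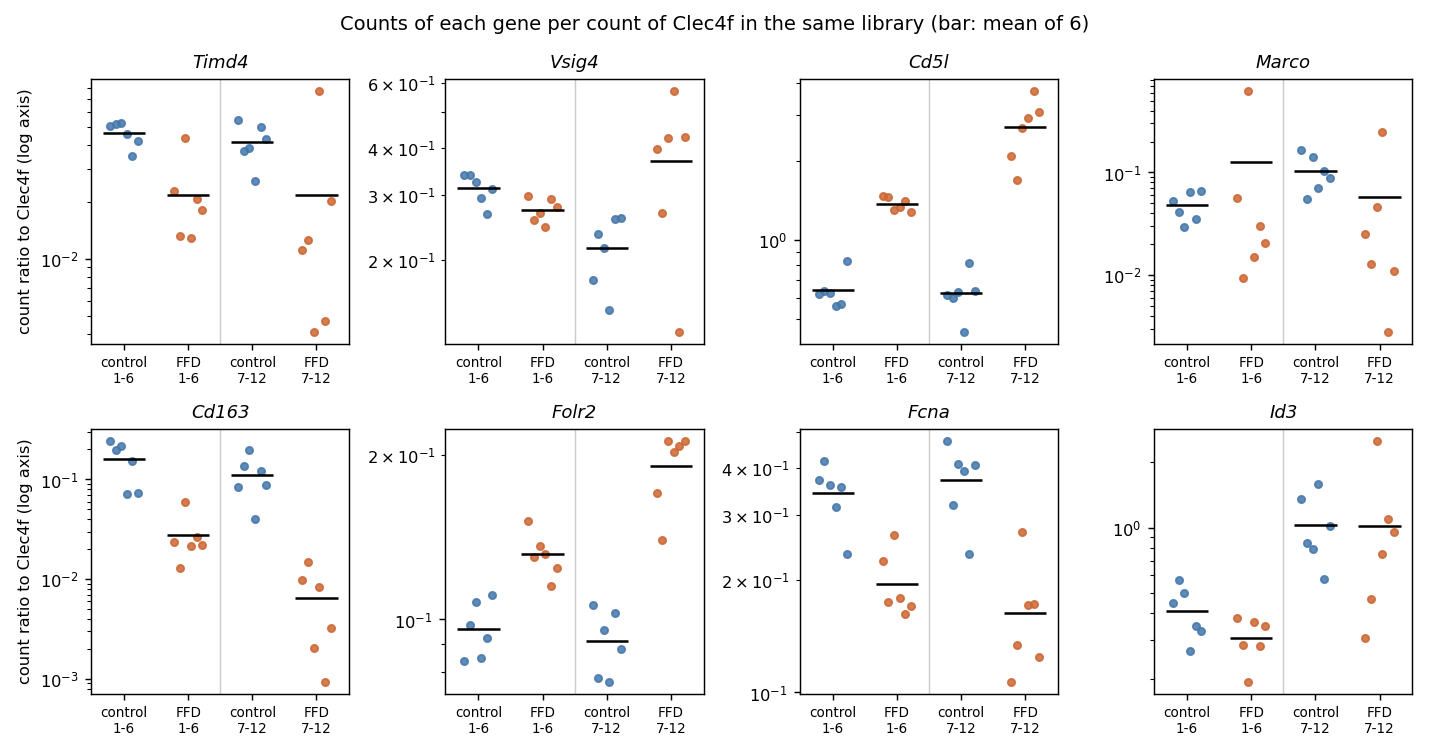
Counts of each gene per count of Clec4f in the same library on a log axis, by diet and number set, with the mean of 6 as a bar. For Cd5l and Folr2 all FFD points lie above all control points, and for Cd163 11 of 12 FFD points lie below.

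Most genes that macrophages of all kinds share were called higher. Of 14 pan-macrophage genes, 13 were called higher and 0 lower, with a median log2 fold change of 1.42, among them Lyz2 (1.86), the lysozyme of myeloid cells, Cd68 (1.84), a lysosomal glycoprotein, and Fcgr1 (1.79), an IgG receptor. Within replicates 1 to 6, 3 of the 14 were called higher, and within replicates 7 to 12, 13 were, with Adgre1, the F4/80 antigen, at 0.48 and 2.52 and Csf1r at 0.34 and 1.88 on the log2 scale. The test of the difference between the sets called 10 of the 14 higher in replicates 7 to 12 and 0 lower, with Adgre1 at 2.02 (SE 0.37, adjusted p = 0.000947, edgeR), where 2.57% of all genes were called higher. Their geometric mean was 21.98 ± 10.3 CPM in control and 58.0 ± 15.4 CPM in FFD (SD, n = 12 each). Of 10 genes of monocytes and monocyte-derived macrophages 9 were called higher (median 2.16; 3 within replicates 1 to 6 and 7 within replicates 7 to 12), led by Chil3 (4.53), Cx3cr1 (3.01) and Itgax (2.98). Chil3 stood at 34.7 CPM in FFD replicate 3 and at 0.851 ± 0.712 CPM in the other 11 FFD libraries, and without that library its log2 fold change was 2.45 and it was still called. The gene not called higher, Fn1, was called lower without that library (-0.62, adjusted p = 0.00206, edgeR). Fn1 then stood at 1104 CPM in FFD, against 0.15 for Ly6i, 0.70 for F13a1 and 1.33 for Ly6c2. The summed CPM of the 10 genes had a median of 1704 in control and 1176 in FFD. Of 9 lipid-associated macrophage genes 8 were called higher, led by Gpnmb (5.49), Mmp12 (3.98), Trem2 (3.47) and Lpl (3.39), and Fabp5, which other liver cells express too, was called lower (-2.01).

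Other Kupffer cell genes were mixed. Of 16 tested, 6 were called higher and 1 lower, with a median log2 fold change of 0.58. Those higher were Cd207 (1.53), a lectin of the langerin type, Hmox1 (1.28), the haem-degrading enzyme, Sdc3 (1.20), a syndecan, Il18bp (1.20), the soluble IL-18 antagonist, Spic (1.09), a transcription factor of haem-handling macrophages, and Ptgs1 (0.61), a cyclooxygenase. The one lower was Paqr9 (-0.74). In the FFD libraries without replicate 3, Paqr9 stood at 234 CPM and Clec4f at 143 CPM, and which liver cells gave the Paqr9 RNA was not tested. Neither Slc40a1, the iron exporter, at -0.14, nor Nr1h3, the LXR-alpha receptor, at -0.33, nor Mrc1, the mannose receptor, at 0.01, was called. Of 13 scavenger receptors, Scara3 (2.07), Cd68, Cd36 (1.04), Msr1 (0.85) and Stab2 were called higher and Cd163 alone lower. The Stab2 call was lost on leaving out any one of 5 libraries.

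**Figure D4:**
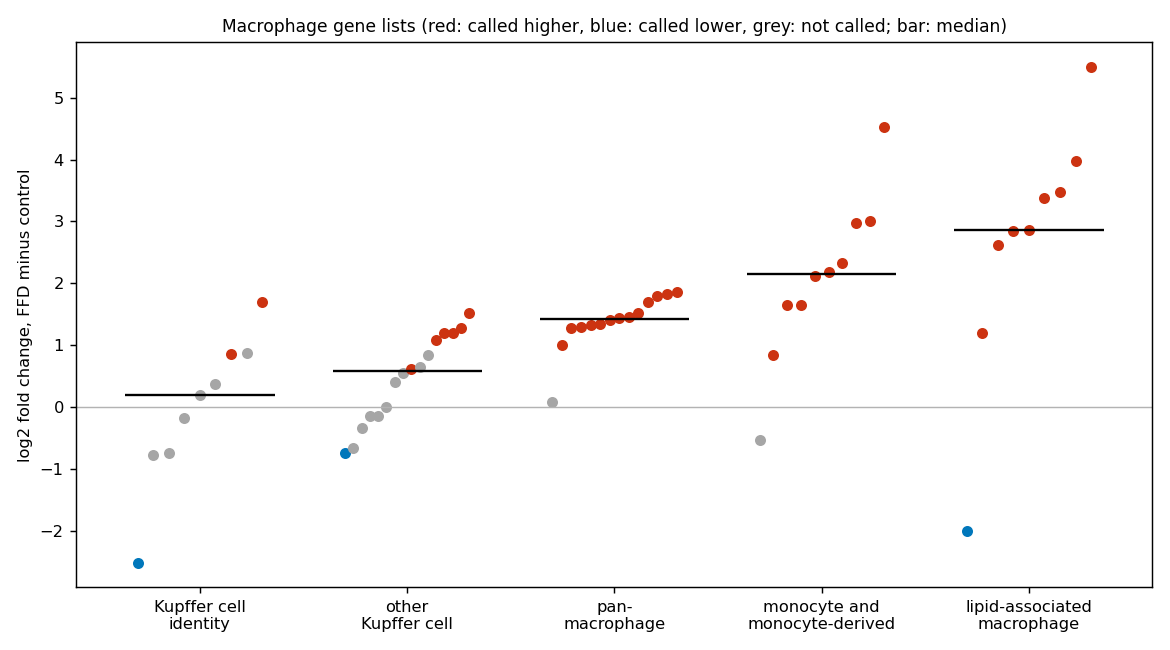
Log2 fold change (FFD minus control) of every tested gene in 5 macrophage lists, red where called higher, blue where called lower and grey where not called, with the list median as a bar. The medians run from 0.20 for the identity genes through 0.58, 1.42 and 2.16 to 2.87 for the lipid-associated genes.

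When each library was scaled by the geometric mean of the 14 pan-macrophage genes instead of by TMM, 6 members were called lower in FFD (Cd163 -3.73, Fcna -2.11, Timd4 -2.11, Id3 -1.84, Clec4f -1.11 and Vsig4 -0.93) and 0 higher. On this scale the median over all genes stood at -1.60 rather than -0.03, and 73.4% of all genes were called lower and 1.01% higher, so the share of the 9 called lower was no larger than the background. Cd5l (0.35, SE 0.18, adjusted p = 0.0804, edgeR) was the only member above 0 on this scale, and Folr2 was at -0.46 (adjusted p = 0.0335). Without any scaling beyond library totals the median moved to 0.26, and of the 9 only Id3 then changed its sign (0.20).

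The signals that hold Kupffer cells in place were tested as a list. Of 10 ligands tested, Tgfb1 (1.29), Csf1 (0.91), the macrophage growth factor, and the Notch ligand Jag1 (0.66) were called higher, and Bmp2 (-0.68) was called lower. Dll4 (0.36, adjusted p = 0.0187), Bmp10 (-0.79, adjusted p = 0.0461) and Bmp6 (-0.70, adjusted p = 0.0191, edgeR) did not pass. Of 13 receptors and mediators Acvrl1 (1.14), the ALK1 receptor, and Csf1r (0.998) were called higher and none lower. Of 7 genes that BMP signals induce, Hamp, the iron hormone of hepatocytes, (-1.93) and Smad9 (-1.39) were called lower, while Id1 (-0.80, adjusted p = 0.0131) did not pass.

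Genes of other liver cells were called too. Of 8 hepatocyte genes 6 were called lower (median -0.71), led by Tat (-1.33), and Alb, which marks the tissue as liver, stood at 74342 CPM in control and 45203 CPM in FFD. Of 11 stellate cell genes 5 were called higher, led by Col1a1 (3.12), and of 5 cholangiocyte genes 4 were called higher. Within replicates 1 to 6, 1 hepatocyte gene was called lower, and 3 stellate and 0 cholangiocyte genes higher. Within replicates 7 to 12 these counts were 6, 6 and 4, where 22.2% of all genes were called against 3.80% in replicates 1 to 6. Of 9 sinusoidal endothelial genes 1 was called in each direction (Stab2, lost on leaving out any one of 5 libraries, and Bmp2), and of 6 T cell and 4 B cell genes 0 were. Of 4 neutrophil genes tested 3 were called higher, led by Mpo (5.41), and without FFD replicate 3 only 2 were, S100a8 (1.55) and S100a9 (1.004), with Mpo at 0.76. Of 4 red pulp and erythroid genes Spic alone was called higher. Their part in the levels of the 9 was not tested.

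Within groups, some identity genes varied together. After subtracting the mean of each diet and set from log2(CPM + 1), the 36 pairs had Pearson correlations from -0.30 to 0.95 with a median of 0.48 (Spearman median 0.50). The points are 24 libraries in which all 9 genes share 1 scaling factor and depth, so the values are descriptive. Clec4f, Folr2 and Cd5l formed the closest trio (0.88 to 0.95), Vsig4 lay near them (0.75 to 0.82), Timd4 and Marco paired with 0.83, and Id3 was nearest to 0 or negative with most others.

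**Figure D5:**
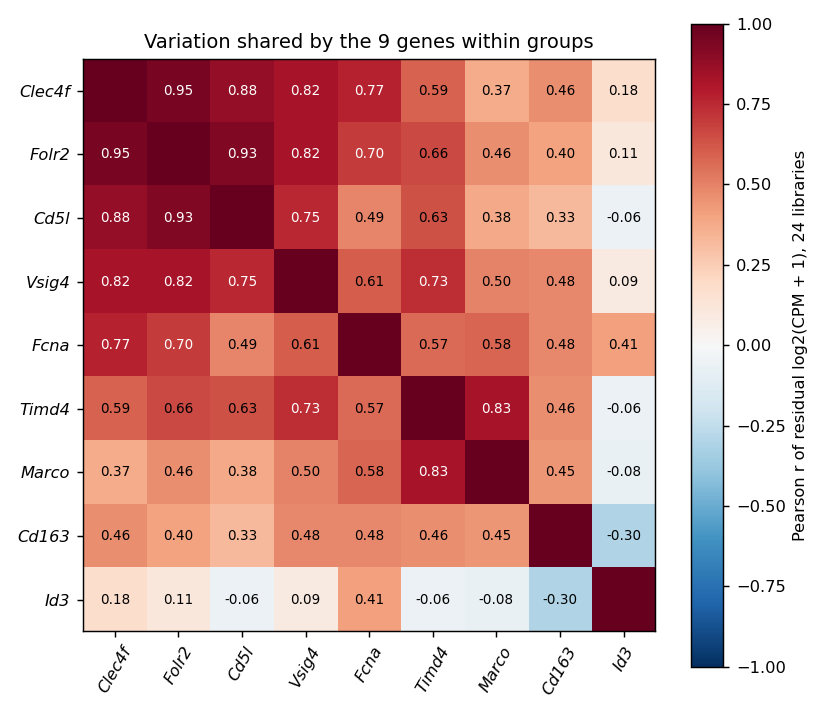
Pearson correlation of the residual log2(CPM + 1) of each pair of the 9 genes over 24 libraries, red for positive and blue for negative. Clec4f and Folr2 are at 0.95, Timd4 and Marco at 0.83, and Cd163 and Id3 at -0.30.

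Among 13776 genes with a mean of at least 10 counts, the genes whose residuals were most like each member were as follows. Clec4f was closest to Folr2 (0.95), Cd5l (0.88) and Cfp (0.87), the complement factor properdin, and Folr2 to Clec4f, Cd5l (0.93) and Cfp (0.91). Cd5l was closest to Folr2, Clec1b (0.93) and Il18bp (0.91), and Vsig4 to Clec4f (0.82), Folr2 (0.82) and Cd300ld (0.79). Timd4 was closest to the formyl peptide receptor genes Fpr2 (0.88) and Fpr1 (0.84) and to Acod1 (0.83), and Marco to Dok3 (0.85), Timd4 (0.83) and Arhgap4 (0.82). Cd163 was closest to Cntrl (0.81), Itgb3 (0.80) and Mbd1 (0.78), Fcna to Ctla2b (0.79), Clec4f (0.77) and Cyp2c54 (0.73), and Id3 to Ift27 (0.89), Irf3 (0.87) and Id1 (0.86). Of these 27 neighbours 13 were also in the nearest 3 by Spearman correlation. By that measure Fpr2, Fpr1 and Acod1 stood at 0.79, 0.65 and 0.58 with Timd4. Dok3 stood at 0.67 with Marco and Irf3 at 0.61 with Id3. Neighbours without FFD replicate 3 or control replicate 10 are not given here.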

How the data were processed

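Poly(A)-selected RNA from whole mouse liver was measured as counts per gene in 24 libraries (12 per diet). The counts were deposited by the authors as 1 table with no normalization. The submitters' processing notes name bcl2fastq, STAR 2.7.3a and the mm10 build. The study's methods name the exon quantification pipeline with this STAR version and PISCES for quantification, but against a human reference. The annotation and counting for the mouse table are not given in the sources used here. Of 56205 gene IDs, 51745 had a symbol in GENCODE M21 (GRCm38). The remaining 4460 IDs held 0.0723% of counts. Whether counting used strand is not given, so reads of overlapping genes could not be told apart.

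Groups and numbers were taken from the titles. A gene was kept if 12 or more libraries held a count of it, which left 17913. TMM scaling and the edgeR 4.0.16 quasi-likelihood test (R 4.3.3) were used with diet as the only term, on 22 residual degrees of freedom. Calls needed an adjusted p of at most 0.01 and a log2 fold change beyond 0.5, the thresholds of the study. The study fitted sex as a covariate in its human liver comparison, which the main fit here did not do. Sets 1 to 6 and 7 to 12 were fitted separately and with a diet-by-set term. Likeness used log2(CPM + 1). DESeq2 1.42.0 and limma-voom 3.58.1 were alternatives. The procedure was tested on simulated counts with 200 genes changed 2-fold. It recovered 59% of them in the diet comparison and 11.5% in the difference between the sets. It called 0 and 1 unchanged genes in these. A gene not called is therefore not shown to be unchanged. The labels describe separate mice. No 2 libraries agreed within sampling noise. The deviations of same-numbered libraries from their diet means correlated by -0.096 to 0.580, and from their diet and set means by -0.277 to 0.307, so the numbers were not taken as pairs.

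The members and gene lists were chosen with earlier results of these data known. All members were named, and of each list up to 4 called genes per direction with the largest change. For each member the 3 genes most like it were named, and Xist and Ddx3y to describe the sets. List genes named without a call were chosen after their values were seen. RefSeq promoters came from GRCm38.p6.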

Additional observations from a re-analysis of the deposited data

Results flagged for a closer look

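The diet effect on Cd5l was larger in replicates 7 to 12 (male by Xist and Ddx3y counts) than in replicates 1 to 6 (female). The log2 fold changes were 2.57 (SE 0.29) and 1.12 (SE 0.16), and the test of their difference gave 1.42 (SE 0.34, adjusted p = 0.00783, edgeR over 17913 genes). The FFD means were close, 249 ± 14.4 CPM in replicates 1 to 6 and 270 ± 127 CPM in replicates 7 to 12, while the control means were 114 ± 35.4 and 46.2 ± 9.68 CPM (SD, n = 6 each). The call was lost when any of 15 libraries was left out (FFD replicates 1, 2, 4, 5, 6, 7, 8 and 10 and control replicates 4, 5, 6, 7, 8, 9 and 12).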

How the results depend on the processing

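The calls of Cd163 and Cd5l held under the other normalizations, tools and filters tried and in every fit that left out 1 library, except that Cd5l was 0.35 and not called per macrophage transcript. With library totals, 3827 genes were called higher and 226 lower, Id3 was 0.20, the Fcna difference between sets was 0.30 and 3 members had a larger effect in replicates 7 to 12. Per macrophage transcript, 181 genes were higher and 13151 lower, with 0 members higher and 6 lower: Cd163 -3.73, Clec4f -1.11, Timd4 -2.11, Vsig4 -0.93, Fcna -2.11 and Id3 -1.84, and Marco -0.54 and Folr2 -0.46 uncalled. Marco was -0.48 in DESeq2 and -0.99 in limma-voom. At an adjusted p of 0.05 and no fold threshold, 3709 genes were higher and 3388 lower, with 2 members lower (Fcna -0.77 added). At a log2 fold change beyond 1, 216 genes were lower and 1 member higher, Folr2 (0.87) being lost. With the replicate number as a block, 2 members were lower, Fcna was -0.81 and Marco -0.96; with the set as covariate, 2 were lower and Fcna was -0.78. Replicate numbers showed no pairing: a library was closest to its own number in 2 of 12 cases. In replicates 1 to 6 alone, 509 genes were higher and 177 lower, with 1 member higher and 2 lower, Vsig4 -0.15, Folr2 0.48 and Fcna -0.74. In replicates 7 to 12 alone, 1430 genes were lower and Marco was -0.10. Without FFD replicates 9 and 11, 582 genes were lower. Without FFD replicates 3 and 10, 1 member was higher and 2 lower, with Timd4 -1.34, Marco -1.30 and Folr2 0.83. Both omissions and the Clec4f ratio were chosen after seeing the data. Where a count of members stands without the number of all genes called in the same fit, that number is not given here. Such a count is not read against a background. The log2 ratio to Clec4f differed by 1.11 and 2.09 for Cd5l and by 0.45 and 1.06 for Folr2 in the 2 sets. Leaving out each library in turn gave 1 to 2 members higher and 1 lower, where 2137 to 2464 of all genes were higher and 745 to 995 lower. These fits gave 0 to 2 members with a larger effect in replicates 7 to 12. They put Marco at -0.49 to 1.01, Id3 at -0.25 to 0.037 (the latter without control replicate 10) and Folr2 at 0.78 to 0.99. Differences between sets were -0.26 to 1.22 for Timd4, -3.27 to 0.84 for Marco and -0.25 to 0.13 for Fcna. Except where a library is named, the cause was not tested. Depth limits Timd4, Cd163 and Marco, whose lowest FFD libraries held 4, 1 and 3 counts.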
